A study of Homo sapiens with 35 samples.

Results

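Chromosome 4 was described here as the 1883 bins of 100 kb that lie on it and hold a value in every cell, of 26584 such bins in the whole table (7.08%). They were chosen by position alone, as all measured bins named chromosome 4. The short arm, up to 49.7 Mb in the genome build hg19, held 497 of them, and the long arm, above 51.1 Mb, held 1386. Of the 1912 bins listed for the chromosome, 29 had no value. Among them 14 lay between the arms, 14 at the start of the long arm and 1 at its end. The chromosome was singled out because its mean share of contacts with the nuclear lamina was the highest of the table, so that share is given as a description and without a test.

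All cells belonged to 1 group, the diploid (2N) clone 5-5 of KBM7. This is an established line of human leukaemia cells. Each carried the bacterial adenine methylase Dam fused to lamin B1, and methylation near the fusion protein was induced with 0.5 nM Shield1 for 15 h before sorting, per the labels. The sort took single cells from the 2% smallest that were positive for both Fucci markers of the cell cycle. The labels name 35 samples, and 32 were analysed here as separate cells of 1 clone, so the spread below is that between cells of this clone. Reads from the copies of chromosome 4 were not told apart, and no cells with unfused Dam and no second condition were used here.

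The nuclear lamina is a meshwork of lamins under the inner nuclear membrane. Large stretches of chromatin touch it, and these lamina-associated domains are typically poor in genes, rich in A and T, late replicating and little transcribed. Active, gene-rich chromatin usually lies in the interior of the nucleus. DamID marks GATC sites that came close to the fusion protein, so that sequencing the marked fragments shows where contacts occurred during the induction.

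The measurement, OE, was the observed over the expected reads of a bin, and a bin with an OE of 1 or more was taken as in contact in that cell. Recovered reads ranged from 40279 to 258225 in 29 deeper cells, with a median of 126621. Cells 13, 15 and 17 held 985 to 1755 reads, where 1 read gave a median OE of 13.7 to 24.9. There a single read was enough for a contact, and contacts were few. The differences tested below are therefore also given without them. No 2 of the 496 pairs of cells had identical values, and on chromosome 4 the correlation of OE over bins between deeper cells was 0.260 to 0.786. A count of 0 of 32 cells allows a frequency of up to 9.38% by the limit of 3 counts, or 10.9% as the upper end of the exact 95% binomial interval. For 26 of 32 cells that interval is 63.6 to 92.8%. These limits cover only the number of cells.

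In a single cell, between 5.47% (cell 13) and 57.1% (cell 31) of the bins of chromosome 4 were in contact, with a median of 44.5%. In the 29 deeper cells the lowest value was 31.0%, in cell 25, and the mean was 45.1% ± 6.80 (SD). The bins of all other chromosomes had 27.3% ± 3.93 in the same 29 cells. The ratio of the 2 shares was 1.28 in cell 25, 1.60 at the median and 1.98 in cell 11. No cell had a lower share on chromosome 4 than on all other used bins together, but the size of the lead varied. The used bins include none of chromosome 8, and only 520 of chromosome 15, over a length of 103 Mb. Chromosome 4 had rank 1 among the 22 chromosome entries of the table in 19 of 32 cells, with rank 2 in 6 cells, rank 3 in 3, rank 4 in 3 and rank 8 in cell 32. Where it was not first, the leader was X in 5 cells (4, 17, 21, 24 and 25), chromosome 18 in 3, chromosome 5 in 2, and chromosomes 3, 6 and 13 in 1 each. In cell 25 the X chromosome had 45.8% of its bins in contact against 31.0% for chromosome 4.

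Shares rose with depth. Over the 29 deeper cells, the share of chromosome 4 and log10 of the recovered reads had a Pearson's r of 0.709 and a Spearman's rho of 0.758. The lead over other chromosomes had an r of 0.304 and a rho of 0.265 with log10 reads. These cells share 1 procedure and differ in depth, so the coefficients are descriptions. The part of depth in the differences between cells was not tested.

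Single bins were compared with the number of cells expected from the contact shares of the cells, 8.42 per bin, by an exact two-sided Poisson-binomial test with Benjamini-Hochberg adjustment over 26584 bins. On chromosome 4, 909 of 1883 bins (48.3%) were in contact more often, against 30.3% of all bins. Fewer than in the whole table were in contact less often, 655 bins (34.8%) against 54.5%. A bin passed upward with at least 15 cells and downward with at most 3. The chromosome was singled out by these same contacts. Its counts of such bins, and those by frequency below, therefore describe its high share and do not test it. At a frequency of 80% or more there were 382 bins, which made up 20.3% of the chromosome, against 8.43% of all bins. The 417 bins in contact in no cell made up 22.1%, against 42.0%. In the 29 deeper cells alone, 567 bins (30.1%) reached 80%, against 14.2% of all bins. There 17 bins (0.903%) were in contact in every cell, against 0.500% of all bins. In these cells 934 bins were called in contact more often and 658 less often, and the matching shares of all bins are not given here.

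On the chromosomes next in mean share, X and 5, fewer bins reached high frequencies. Chromosome 5 had 13.3% of its bins at 80% or more and 31.9% in no cell, and X had 15.9% and 24.7%. The RefSeq table of the assembly GRCh38.p14 lists 770 protein-coding genes on chromosome 4, 904 on chromosome 5 and 848 on X. The chromosome lengths in the deposited table were 191, 181 and 155 Mb. Chromosomes 13 and 18, next in mean share after chromosome 5, list 338 and 270 such genes over 115 and 78.1 Mb. Their mean shares were 33.2% and 32.5%, against 41.5% on chromosome 4. The relation of gene number to contact share was not tested. Reads in bins that never reached the contact limit were also more frequent on chromosome 4. The mean OE of its 417 such bins was 0.0539 ± 0.0316 (SD, n = 29 deeper cells), against 0.0354 ± 0.0198 for such bins elsewhere. The part of this in the contact calls was not tested. The median of expected reads per bin on chromosome 4 was 0.984 times that of all bins. Fewer of its bins lay in the lowest decile of expected reads, 4.35% against 10.4% of other bins. Bins without a read in any cell, 38 on chromosome 4, fall in that decile by the way expected reads were derived. The percentages are therefore not independent of the contacts.

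**Figure D1:**
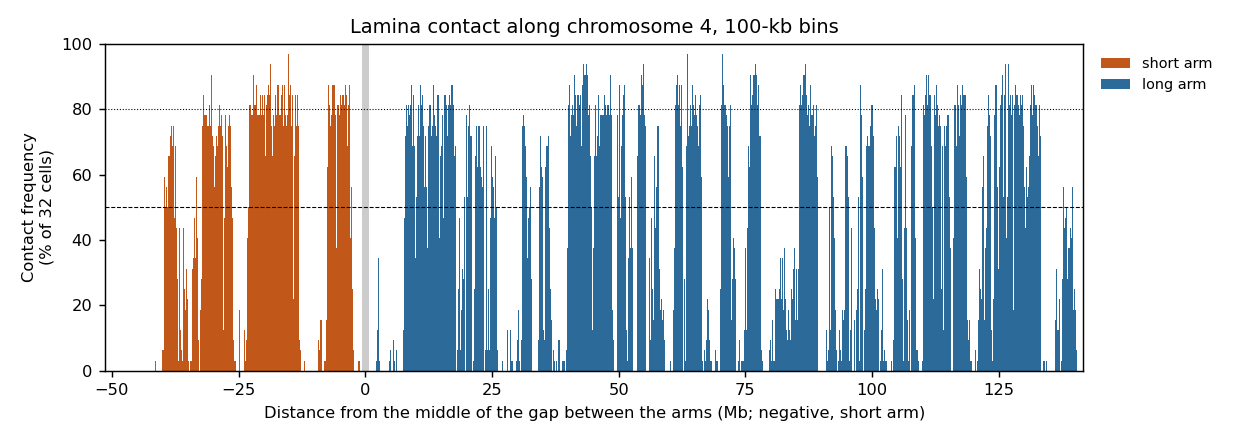
Contact frequency of each 100-kb bin of chromosome 4 (y axis, % of 32 cells) against its distance from the middle of the gap between the arms (x axis, Mb, short arm negative). Bars are bins, the dashed and dotted lines mark 50% and 80% of cells, and the grey band marks the gap. The last 9 Mb of the short arm hold no contact, and the widest block of high bars, 9.0 Mb, lies on the same arm.

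The short arm was in contact a little less than the long arm. Its share was 5.03% at the lowest (cell 13), 42.3% at the median and 54.1% at the highest (cell 31), and that of the long arm was 5.63%, 45.4% and 58.2% in the same order. The means were 38.8% ± 13.2 and 42.5% ± 13.4 (SD, n = 32). The short arm was lower in 24 of 32 cells, by 3.69 percentage points on average (SD 6.05, sign-flip permutation test, adjusted p = 0.00151 over 5 comparisons). The ranges of the arms overlap almost fully, and within a cell the difference ran from 15.3 points below (cell 25, -15.3) to 7.50 points above (cell 10). The direction depended on the tips. Without the last 10 Mb of each arm, a comparison chosen after the data were seen, the short arm was higher by 5.22 points (48.5% against 43.3%, higher in 26 of 32 cells). It leaves out a short-arm tip known to hold almost no contacts, so the value is a description, with no test. With a contact limit of 2 the arms differed by -0.975 points (sign-flip permutation test, adjusted p = 0.462). Without bins of low expected reads they differed by -0.429 points (same test, adjusted p = 0.712). Of the 82 such bins on chromosome 4, 36 lie in the last 10 Mb of the short arm. Among the 82, 38 had no read in any cell and were counted as lowest for that reason. This filter thus removes bins without contacts by construction, so it cannot separate expectation from contact.

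**Figure D2:**
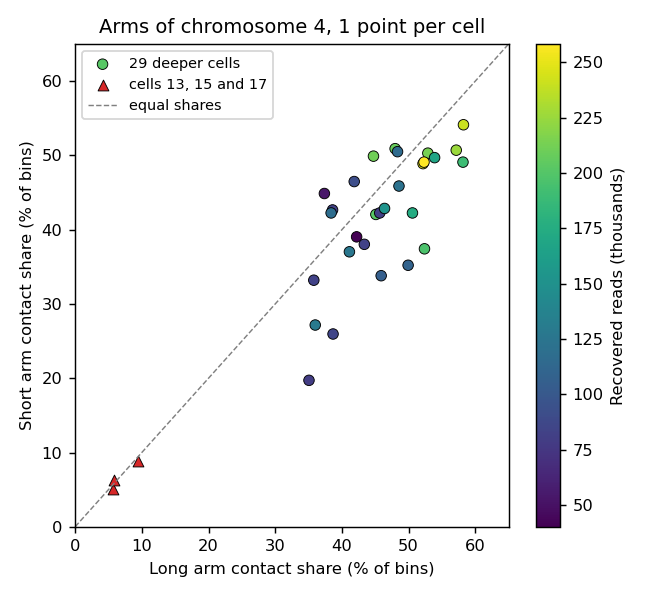
Contact share of the short arm (y axis, % of its bins) against that of the long arm (x axis, % of its bins), 1 point per cell, coloured by recovered reads, with cells 13, 15 and 17 as triangles. The dashed line marks equal shares, and 24 of 32 cells lie below it.

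The ends of the arms differed from each other. The tip of the short arm, band 4p16, is known for many active genes, and the gene of Huntington disease, HTT, lies there. Within the last 10 Mb the highest share in any cell was 1.00%, and the median was 0%. The mean was 0.0938% ± 0.296 against 48.5% ± 16.5 in the rest of the arm, lower in 32 of 32 cells by 48.5 points (-48.5, sign-flip permutation test, adjusted p = 1.67e-05). All 100 bins of this tip were called in contact less often, against 54.5% of all bins of the table. Only 3 were in contact at all, each in 1 cell (chr4:9000001-9100000, chr4:9300001-9400000 and chr4:9500001-9600000). In the first 9 Mb, 223 reads were recovered over all cells, with a median of 8 and a maximum of 34 per deeper cell. The highest OE of any bin and cell there was 0.880, and 21 of the 90 bins had no read in any cell. The median of expected reads per bin in the last 10 Mb was 0.810 times that of the table. Expected reads were derived from the reads, and bins without a read were counted as lowest. This value is therefore not independent of the lack of reads. At 10 to 15 Mb from the tip, the share was 39.1% ± 20.7.

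The tip of the long arm, band 4q35, had fewer contacts than the rest of its arm, but was not without them. The last 10 Mb had a share of 4.04% to 60.6% with a median of 30.3%, and the rest of the arm had 5.67% to 59.4% with a median of 45.3%. The tip was lower in 25 of 32 cells, by 11.7 points (-11.7, SD 13.1, adjusted p = 3.75e-05), and the ranges overlap. From 15 to 10 Mb before the end the share was 72.1% ± 25.4, then 37.9% ± 14.3, and in the last 5 Mb 26.0% ± 21.3. The last 11 bins, from position 190000001, border on the D4Z4 repeat array, whose contraction is linked to facioscapulohumeral dystrophy. Cells differed widely there. No bin was in contact in 14 cells (11 of the 29 deeper), while 7 of the 11 were in contact in cells 20 and 21, 6 in cell 31 and 5 in cell 6. No bin of this stretch exceeded a frequency of 37.5%.

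Without cells 13, 15 and 17 the differences between the arms and at both tips kept their direction and passed the test, at -4.05, -52.6 and -12.7 points (sign-flip permutation tests, adjusted p of 0.00167, 1.67e-05 and 6.25e-05).

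The flanks of the centromere were unlike on the 2 arms, and on the short arm the value depended on the width taken. The 5 Mb of short arm next to the centromere had a median share of 56.0% (2.00 to 68.0%), against 40.6% (4.92 to 52.6%) in the rest of the arm. They were higher in 27 of 32 cells, by 11.6 points (SD 9.71, adjusted p = 1.67e-05). This rested on the bins 2 to 5 Mb from the arm's end, with a share of 77.5% ± 28.3 and 28 of 30 bins called in contact more often. In the last 2 Mb the share was 6.88% ± 5.64, 13 of 20 bins had no contact in any cell, and the difference turned to -33.3 points (adjusted p = 1.67e-05). The long arm had few contacts near the centromere. Its first 36 measured bins had a median share of 2.78% and at most 13.9%, against a median of 46.6% in the rest of the arm. They were lower in 32 of 32 cells, by 39.8 points (-39.8, SD 12.4, adjusted p = 1.67e-05). Without cells 13, 15 and 17 the differences next to the centromere were 13.0 points on the short arm and -43.2 on the long arm (adjusted p = 1.67e-05 in either case, permutation by sign flips). All 30 bins at chr4:53100001-56100000 were called in contact less often, against 54.5% of all bins of the table. Band 4q12, just below the centromere, is known for the receptor tyrosine kinase genes PDGFRA, KIT and KDR, which stand side by side in the RefSeq order, and KIT is active in blood progenitor cells.

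Between these ends, contact shares rose and fell several times along the chromosome. In windows of 10 Mb, the highest share on the short arm was at chr4:30000001-40000000, with 58.0% ± 18.7 (SD, n = 32) and 9.00 to 75.0% over cells. The lowest was the tip. On the long arm the highest window was chr4:90000001-100000000, with a share of 12.0% at the lowest, 75.0% at the median and 90% at the highest, and 52 of its 100 bins at 80% of cells or more. The lowest full window of the long arm lay directly before it, chr4:80000001-90000000, with 2.00%, 26.5% and 49.0%, and no bin at 80%. Of 100 bins each, these neighbours hold 84 and 31 called in contact more often, against 30.3% of all bins. They hold 9 and 57 called less often, against 54.5%. Of all bins, 8.43% reached 80%. Both windows were named for their share, so the counts restate it in part. In 7 of the 20 windows (windows 3, 4, 7, 10, 14, 17 and 18, counted from the tip of the short arm) the share lay above that of the other chromosomes in all 29 deeper cells. In window 9 it was above in 14 of 29, in window 15 in 15 of 29, in window 20, of 11 bins, in 10 of 29, in window 6 in 4 of 29 and in window 1 in none.

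**Figure D3:**
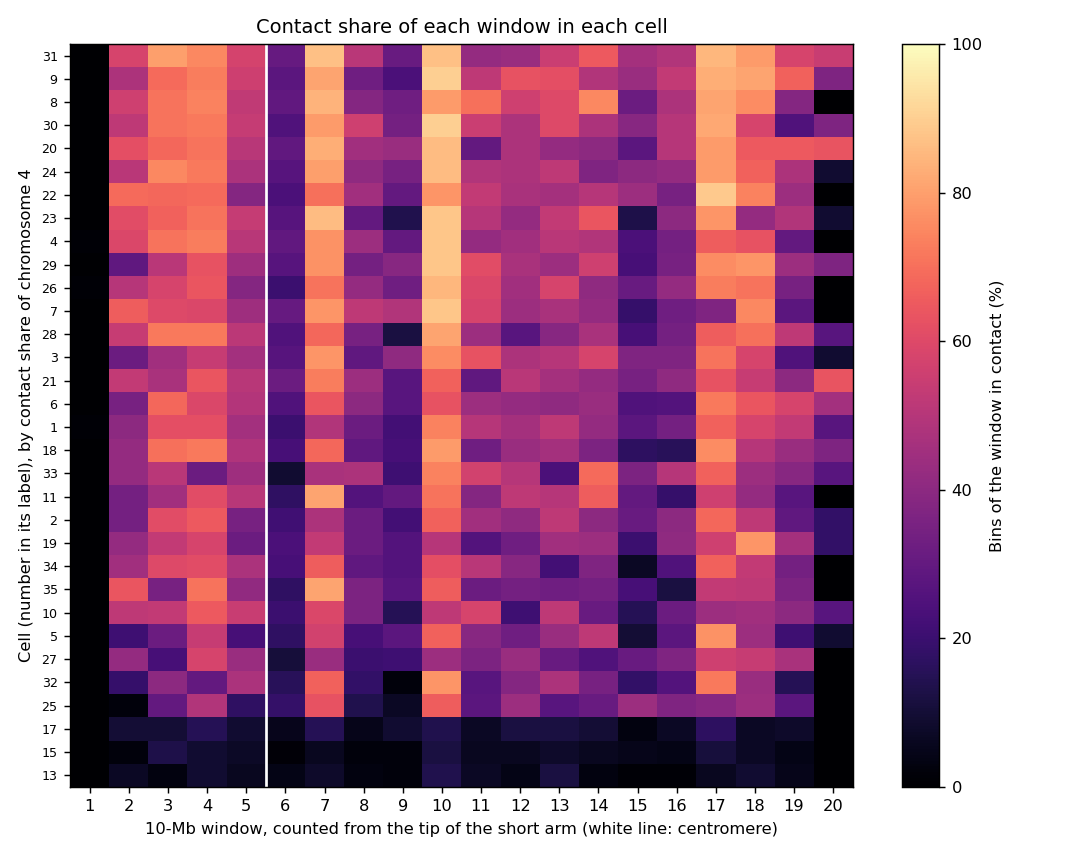
Contact share (colour, % of bins) of each 10-Mb window (x axis, counted from the tip of the short arm) in each of 32 cells (y axis, ordered by their share on chromosome 4). Windows 7, 10 and 17 are bright in nearly every deeper cell and window 1 is dark in all. Cells 17, 15 and 13, at the bottom, hold few reads.

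A domain was taken as a stretch of adjacent bins that were in contact in at least 50% of cells. Chromosome 4 had 82 of them with a median length of 0.6 Mb, 14 on the short arm and 68 on the long arm, and they held 889 bins (47.2%, against 29.0% of all bins). The 28 domains of 1 Mb or more held 76.9% of this length. Domains were found with the same contacts that are then described in them, so the values below are descriptions. Genes are named only as background from their known chromosome bands, and none was assigned to a bin.

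The longest domain, chr4:27200001-36200000, covered 9.0 Mb of the short arm in band 4p15. This band holds a gene desert around PCDH7, a gene of the protocadherin family of neuronal adhesion molecules. The named protein-coding neighbours of PCDH7 in the RefSeq order are STIM2 and ARAP2. In the 29 deeper cells between 51.1% (cell 33) and 100% of the domain's 90 bins were in contact, with a median of 92.2%, and 5 cells had all 90. Its mean OE was 2.92 ± 0.812 (SD, n = 32). The Mb before it had a frequency of 10.9%. The Mb after it, in which the domain chr4:36400001-37400000 begins, had 64.4%. Between adjacent bins the right border was the steeper, falling from 81.25% to 21.9%, while the left border rose from 40.6% to 56.25%. No deeper cell had fewer than 50% of this domain in contact, and 16 had at least 90%.

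The short arm held 2 more of the 8 longest domains. The domain at chr4:18100001-22300000 (4.2 Mb, mean frequency 75.1%) also lies in 4p15, the band of SLIT2, a secreted guide of growing axons, and KCNIP4, a subunit of potassium channels. Its share varied more, from 19.0% in cell 25 to 100%, with a median of 90.5% in the deeper cells. The domain at chr4:44800001-47400000 (2.6 Mb, 82.3%) lies near the centromere, where band 4p12 holds a cluster of genes for subunits of the GABA-A receptor. In the RefSeq order these genes are GABRG1, GABRA2, GABRA4 and GABRB1, with only COX7B2 among them. In the median deeper cell 100% of its 26 bins were in contact, the highest median of the 8 domains, but in cell 25 only 23.1% were.

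The other 5 lay on the long arm. The second longest domain, chr4:90400001-95100000 (4.7 Mb, 81.6%), lay in band 4q22. Its deeper cells had 57.4% (cells 6 and 10) to 100% of the bins in contact, and its mean OE was 3.12 ± 1.06. The next long domain was chr4:95500001-99000000 (3.5 Mb, 78.8%), whose share ran from 17.1% in cell 27 to 100%. On its right side the next Mb had a frequency of 10.6%, with 46.9% in the first bin outside. The domain chr4:135900001-139100000 (3.2 Mb) had the highest mean frequency of the 8, 83.1%. Band 4q28, in which it lies, holds the protocadherin genes PCDH10 and PCDH18 with 1 named protein-coding gene, PABPC4L, between them. In 22 of 29 deeper cells at least 90% of it was in contact, and cell 10 had the lowest share, 40.6%.

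The domain chr4:113700001-116800000 (3.1 Mb, 79.2%) had few contacts on its right side, 4.69% in the next Mb, and its share ran from 35.5% in cell 10 to 100%. The bands 4q25 and 4q26 around it are known for ANK2, an adaptor of membrane channels in heart and brain, and CAMK2D, a calcium-dependent kinase. The domain chr4:125900001-128500000 (2.6 Mb, 80.2%) had the fewest contacts around it of the 8. Its flanks had a frequency of 20.0% on the left and 1.88% on the right, and all deeper cells had at least 50.0% of it in contact. Band 4q28 holds there the atypical cadherin gene FAT4 and a gap before the next named gene, INTU. Cell 25, 27 or 10 had the lowest share of the deeper cells in 7 of the 8 domains, in 1 of them tied with cell 6.

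**Figure D4:**
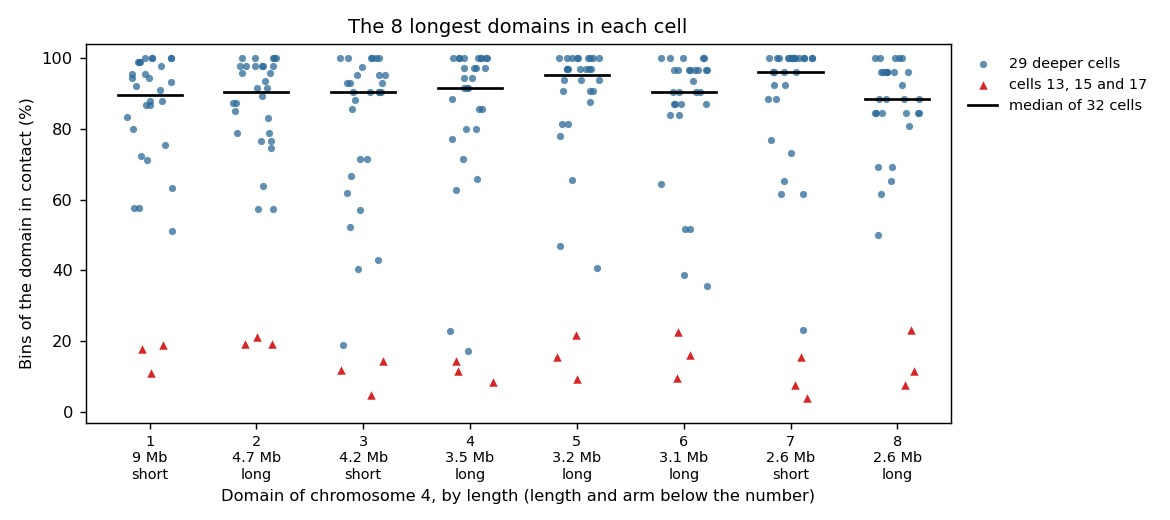
Share of bins in contact (y axis, %) in the 8 longest domains of chromosome 4 (x axis, by length, with arm), 1 point per cell, with the median of 32 cells as a bar and cells 13, 15 and 17 as triangles. Medians lie between 88.5 and 96.2%, and each domain has deeper cells at 100%.

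Within the domains, stretches at 80% of cells or more were shorter, and 5 of the 153 measured 1 Mb or more. The core chr4:93200001-94400000 had the highest mean frequency of these 5, 88.5%, and the deeper cells had 75.0 to 100% of its bins in contact, with a mean OE of 3.32 ± 1.14 (SD, n = 29). In the core chr4:126400001-128100000 it was 87.7%, with 64.7 to 100% of the bins in the deeper cells and a mean OE of 3.60 ± 1.44. The others were chr4:136000001-137600000 (86.3%), chr4:45400001-46700000 (84.1%) and chr4:161100001-162100000 (87.8%). The last had at least 90% of its 10 bins in contact in 27 of 29 deeper cells. All 5 had a median of 100% in the deeper cells, so that the typical cell had the whole core in contact. The bins with the highest frequency were in contact in 31 of 32 cells (96.9%, exact 95% binomial interval 83.8 to 99.9%). By mean OE the first 3 were chr4:120800001-120900000, chr4:35200001-35300000 and chr4:113900001-114000000. The median OE of the first was 3.36, and its highest value among deeper cells was 8.07.

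At a domain border the mean frequency changed mostly within a single bin. Over the 56 borders of the 28 domains of 1 Mb or more, the mean frequency was 28.5% in the bin outside and 67.7% in the bin inside, and it reached 75.8% in the next bin. Further inside it stayed at 77.4 to 77.8%. The limit of 50% by itself sets the border bins apart, so the step is a description. Outside, the mean frequency rose with distance, from 28.5% next to the border to 44.1% at -950 kb.

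**Figure D5:**
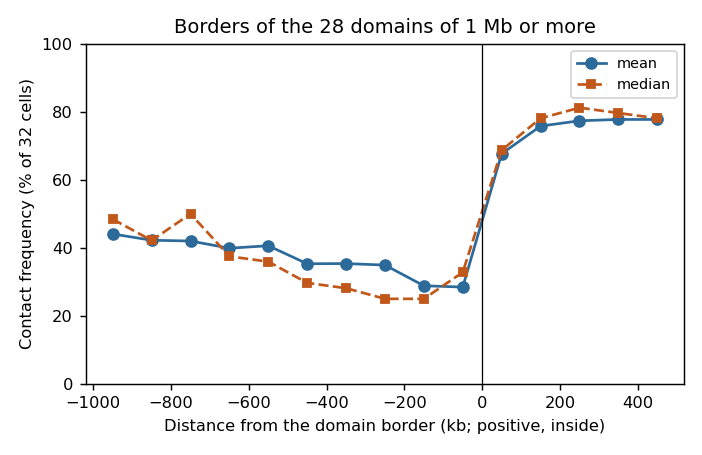
Mean and median contact frequency (y axis, % of 32 cells) of the bins around the 56 borders of the domains of 1 Mb or more, against the distance of the bin's centre from the border (x axis, kb, positive inside). The mean is 28.5% in the first bin outside and 67.7% in the first inside.

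Stretches in contact in no cell numbered 105, of which 7 were at least 1 Mb long. Beside the tip of 9.0 Mb, the longest was chr4:38500001-41000000 on the short arm (2.5 Mb). Band 4p14, in this region, is known for the genes of the Toll-like receptors TLR10, TLR1 and TLR6, which are neighbours. Over its 25 bins 165 reads were recovered, and its mean OE was 0.0316 ± 0.0301 (SD, n = 32), with 0.117 in the highest cell. Of the other 6, 3 had a contacted Mb on 1 side. The Mb before chr4:139800001-141300000 (1.5 Mb) had a frequency of 68.1%, that before chr4:128800001-130100000 (1.3 Mb) 55.6%, and that after chr4:56700001-57900000 (1.2 Mb) 58.8%. The stretches chr4:184900001-186400000 (1.5 Mb), chr4:109500001-110600000 (1.1 Mb) and chr4:25700001-26500000 (0.8 Mb) had 1.25 to 28.4% on either side. The mean OE of the last 3 stretches was 0.0349 to 0.0529, against 2.66 to 3.22 in the 8 longest domains.

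In a typical deeper cell, most of the domains were in contact at some time during the 15 h of induction. Domains were defined by bins in contact in at least 50% of cells, so a high number is in part built in. Of the 28 domains of 1 Mb or more, a median of 27 had at least 50% of their bins in contact in a deeper cell. Cell 25 had only 13 and cell 19 had 20, and in the other deeper cells the number was 22 to 28. Over the 812 pairs of domain and deeper cell, 467 (57.5%) had at least 90% of the bins in contact and 266 (32.8%) had all of them. Only 5 pairs had 10% or less, of which cell 25 held 2. With 2 copies of the chromosome and 15 h of induction, a contacted domain in a cell need not be contacted on both copies or all the time.

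Runs of adjacent contacted bins were longer on average on chromosome 4 than on chromosomes 5 and X, by an amount that moved with the setting. In the 29 deeper cells the mean run was 618 kb ± 193 (312 to 979 kb) on chromosome 4, 540 kb ± 132 on chromosome 5 and 531 kb ± 143 on X. Over all 32 cells, chromosome 4 exceeded chromosome 5 by 70.9 kb (SD 147, higher in 22 of 32 cells) and X by 79.1 kb (SD 138, higher in 22 of 32 cells). Without cells 13, 15 and 17 the differences were 78.3 kb and 87.1 kb. Runs come from the same contacts for which the chromosome was singled out, and more contacted bins by themselves give longer runs, so these differences are descriptions, with no test. After thinning the deeper cells to 40279 reads, the difference from chromosome 5 was 32.3 kb, and with a contact limit of 2 the differences were 10.5 kb and 8.09 kb.

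The longest run of a cell on chromosome 4 measured 2.50 to 10.3 Mb in the deeper cells, with a median of 4.80 Mb, and 0.200 to 0.400 Mb in cells 13, 15 and 17. It overlapped the 9.0-Mb domain at chr4:27200001-36200000 in 16 of 29 deeper cells. In cells 8 and 31 it ran beyond the domain, over 10.3 Mb (chr4:27100001-37400000) and 10.2 Mb (chr4:27300001-37500000). The longest run was on average 0.625 Mb longer than on chromosome 5 (SD 2.24, longer in 14 of 32 cells and shorter in 16) and 0.847 Mb longer than on X (SD 2.44, longer in 15 and shorter in 14). Without cells 13, 15 and 17 these differences were 0.7 and 0.941 Mb. That from X was 1.82 Mb with a contact limit of 0.5 and 1.91 Mb with any value above 0, and that from chromosome 5 was 0.997 Mb without bins of low expected reads. A deeper cell had 13 to 33 runs of at least 1 Mb on chromosome 4, with a median of 28, and they held 28.9 to 78.2% of its contacted length.

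For the signal within contacts, no difference from chromosome 5 passed the test. In the 29 deeper cells, the mean OE of contacted bins was 3.03 ± 0.519 on chromosome 4, 3.02 ± 0.602 on chromosome 5 and 3.18 ± 0.852 on X. Over all cells the difference from chromosome 5 was 0.0116 (SD 0.433, 17 of 32 cells above 0, permutation test by sign flips, adjusted p = 0.880), and without cells 13, 15 and 17 it was 0.00991 (adjusted p = 0.901). The difference from X was -0.311 (SD 0.757, lower in 20 of 32 cells, sign-flip permutation test, adjusted p = 0.0428). It was -0.158 without cells 13, 15 and 17 (same test, adjusted p = 0.164). Over all 32 cells the mean on chromosome 4 was 4.79 ± 5.76, raised by these shallow cells. The bins averaged were picked by the same contact calls for which the chromosome was singled out, so these tests are not independent of that choice. 

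The arms of a cell tended to be high or low together. Over the 29 deeper cells, after the share of the other chromosomes was subtracted from each, the short and the long arm had a Pearson's r of 0.490 and a Spearman's rho of 0.473. Without the 2 cells whose short arm lay farthest from the median, r was 0.301. Both values of a cell come from 1 library and carry the same subtracted share. On the same scale, chromosome 4 had an r of 0.0362 with chromosome 5 and -0.0734 with X, where the subtracted share includes the other chromosome. Between domains of at least 1 Mb, the median r over the 29 deeper cells was 0.364 for the 16 pairs up to 5 Mb apart on the same arm, all above 0. It was 0.120 for the 108 pairs more than 50 Mb apart on the same arm and 0.217 for the 100 such pairs on different arms. At 5 to 20 Mb it was 0.155 on the same arm (52 pairs) and 0.295 on different arms (5 pairs). At 20 to 50 Mb it was 0.209 (70 pairs) and 0.268 (27 pairs), so it did not fall steadily with distance. The pair with the highest r, 0.698, was the domain chr4:44800001-47400000 on the short arm and chr4:104100001-105800000 on the long arm, 58.9 Mb apart. It was the highest of 378 pairs and chosen for its value.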

How the data were processed

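The values deposited by the authors are ratios (OE), given for every cell in bins of 100 kb. Cutadapt, Bowtie2 2.1.0 and hg19 are listed in the submitters' processing notes. How the expectation was made, and any filtering or removal of duplicates, is not given in the sources used here. Of 35 samples, 32 matched a column by the number in their title, and samples 12, 14 and 16 were not analysed here. Reads were recovered from the whole steps of the ratios within a bin, with all values whole within 0.01 reads, which follows in part from the method. Expected reads of a bin were taken from the size of its step. Bins without a read in any cell were given the lowest expected value. Reads after PCR are not independent molecules.

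Contact was an OE of 1 or more. Differences within a cell were tested with a two-sided permutation test that flips signs by cell (100000 resamples, smallest p 1e-05), with Benjamini-Hochberg adjustment over 5 comparisons within the chromosome and 6 between chromosomes. Of the latter, the 4 of run length are given without p, since the chromosome was singled out by its contacts. Those of mean OE keep their p, but they also use bins picked by these contacts. Two-sided Poisson-binomial p-values are 2 times the smaller tail. Regions were named by rule: the 8 longest domains, the 5 longest stretches at 80%, the 8 longest in no cell, the highest and lowest full 10-Mb window of each arm and the 3 bins of highest frequency. Other regions and cells were picked with their values in view. The regions, tests and members were chosen with earlier results of these data known. Gene names and their order come from RefSeq (GRCh38.p14), bands from general knowledge, and no sequence is printed because the build of the bins was not at hand. Python 3.11.15 with numpy 2.4.6 and scipy 1.17.1 was used. Alternatives were other contact limits, cells, bins and widths, thinning, and leaving out each cell.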

Additional observations from a re-analysis of the deposited data

How the results depend on the processing

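Of 141 alternatives other than leaving out single cells, 111 kept direction and side of the threshold, or stayed near the value. Counts of bins in this section are of chromosome 4 alone. The shares of all bins under the same settings are not given here, so these counts do not show its standing against the table. With a contact limit of 0.5, 668 bins reached 80% of cells and 232 had no contact, the OE difference from X was -0.268 (adjusted p = 0.0785, permutation test) and the longest run exceeded that of X by 1.82 Mb. With any value above 0 the shares were 61.7% for the chromosome, 55.6% for the short and 63.9% for the long arm. Then 872 bins reached 80%, 38 had no contact, 408 were called less often, and the differences from X were -0.251 in OE (adjusted p = 0.0937) and 1.91 Mb in longest run. With a limit of 2 the shares were 28.2% and, for the long arm, 28.5%, and 29 bins reached 80%. The arms then differed by -0.975 points, runs by 10.5 kb from chromosome 5 and 8.09 kb from X, and the OE difference from chromosome 5 turned to -0.0364 (adjusted p = 0.674).

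Without cells 13, 15 and 17 the OE difference from X was -0.158, and without the 8 sparsest cells -0.111, with 604 bins at 80%. The filter on low expected reads also drops bins with no read in any cell. With it the arms differed by -0.429 points and the OE difference from X was -0.178. The longest run then exceeded that of chromosome 5 by 0.997 Mb and that of X by 1.18 Mb. Thinned to 40279 reads, the differences from chromosome 5 were 32.3 kb in mean run and 0.828 Mb in longest run. With 2 Mb in place of 5 Mb at the centromere the short-arm difference was -33.3 points. Without the last 10 Mb of both arms, added after the data were seen, the arms differed by 5.22 points. The causes of these changes were not tested.

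Leaving out each cell in turn was also added after the data were seen. The difference from chromosome 5 then ran from -0.0117 to 0.0446 in OE and from 62.2 to 81.0 kb in mean run, and that from X from -0.361 to -0.228 in OE (13 of 32 no longer passed) and from 0.639 to 0.981 Mb in longest run. At 985 to 1755 reads, cells 13, 15 and 17 show few of the contacts a deeper cell would, and 32 cells leave wide limits on each bin's frequency.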

Other observations

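The 28 domains of 1 Mb or more differed in how steady they were between cells. The 4 domains below were picked with their values in view. The domain chr4:164500001-165800000 varied most, with none of its 13 bins in contact in 1 deeper cell, all of them in others, and a mean of 78.5% ± 30.5 (SD, n = 29). The domain chr4:120500001-122600000 ranged from 4.76 to 100%. The domain chr4:175500001-176900000 varied least, from 64.3 to 100% (89.2% ± 12.3), and at least 50% of it was in contact in all 29 deeper cells. The domain chr4:149100001-150800000 reached 50% of its bins in 22 of 29 deeper cells, fewer than any other of the 28. At the low end, 238 bins (12.6%) of chromosome 4 were in contact in 1 to 3 of 32 cells, and over all used bins that share was 12.5%.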
